A study of Rattus norvegicus with 40 samples.

Results

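Line A (LnA) rats were compared with Long-Evans (L-E) rats in liver that had seen no dioxin. All arrays labelled LnA, corn oil, 19 h (4 rats) and L-E, corn oil, 19 h (4 rats) were taken, which gave 8 of the 40 arrays of the study. The question was how far the basal mRNA levels of a dioxin-resistant line and a dioxin-sensitive strain already differed before any exposure. LnA rats carry the Han/Wistar form of the aryl hydrocarbon receptor (AHR), which has a deletion in its transactivation domain, and the line was bred by selection from crosses of L-E with Han/Wistar (H/W) rats. L-E (Turku/AB) rats carry the wild-type AHR. Both groups were males of 10 to 12 weeks from colonies in Kuopio that received corn oil by gavage 1 time and were killed 19 h later. Other rats served for comparison. They were LnA and L-E rats taken 19 h after 100 µg/kg TCDD (4 each), L-E rats taken 3 h after TCDD (4), and corn oil rats of Line C (LnC, a sister line of LnA with wild-type AHR, 4 rats) and of H/W (variant AHR, 4 rats). LnA and L-E differ in much of their genome besides the AHR, and each treatment group was kept in a cage of its own, so that line, AHR form and cage cannot be told apart within this pair of groups.

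The AHR is a transcription factor that rests in the cytosol with heat shock protein 90. When a ligand such as TCDD binds, it moves to the nucleus, pairs with ARNT and switches on genes of xenobiotic metabolism, of which Cyp1a1 is the classic example. The liver is its best studied target organ and carries out bile acid, cholesterol, fatty acid and amino acid metabolism besides detoxification. A line selected from a cross fixes alleles of either parent over its whole genome, so basal differences between LnA and L-E can lie in any of these pathways.

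Each rat had its own Affymetrix RAE230A array, whose values are log2 signals per probe set made with GCRMA, which corrects for background by probe sequence. A difference of 1 on this scale is a doubling. Median signals were 3.61 to 3.76 on the LnA arrays and 3.55 to 3.60 on the L-E arrays. The mean correlation of an array with its own group was 0.995 to 0.996 in both groups, and with the other group 0.986 to 0.990. All 4 LnA arrays were scanned on 1 day and came from 1 chip lot, whereas L-E replicate 1 and L-E replicates 2 to 4 belonged to 2 other scan days and lots, so scan day, lot and group cannot be told apart. The bacterial control RNAs added at hybridisation averaged 10.52 to 10.90 on the LnA arrays and 10.25 to 10.42 on the L-E arrays (18 probe sets), and these ranges do not overlap. The 5′ minus 3′ signal of β-actin, a sign of RNA integrity, was -2.23 to -1.94 in LnA and -2.04 to -1.83 in L-E. Of 13 measured markers of hepatocytes 0 were called (median difference 0.03, and -0.02 with centring), as were 0 of 6 of bile duct and 0 of 14 of blood, pancreas and fat. Over all genes 2.34% were called, so lists this short can hold no call whatever the mix of cells. Both group means were at background for 5 of the 6 bile duct markers and 10 of the 14 of blood, pancreas and fat. The number of arrays limits the precision: the smallest two-sided exact p of 4 against 4 arrays is 0.0286 for a single value.

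Of 10411 genes, 244 (2.34%) were called different at an adjusted p under 0.01 (limma, Benjamini-Hochberg over all genes). LnA had higher signals of 91 genes (0.874%) and lower signals of 153 genes (1.47%). Centring every array at its median signal changed the split to 48 genes higher and 166 lower. Between 80 and 233 genes were called when 1 array was left out, the fewest without LnA replicate 4 (80) or LnA replicate 3 (82). The median difference was 0.65 among the genes higher in LnA and -0.91 among those lower, and 0.06 over all genes. A difference of at least 1 was found for 24 of the higher and 66 of the lower genes, while 40 called genes differed by less than 0.5. The LnA and L-E arrays did not overlap for any of the 244, but they did not overlap for 49.7% of all genes either, of which 4485 were higher in LnA and 686 lower. Of the 4305 genes with both group means under the lowest array median (3.55), 3164 did not overlap, so at the low end of the scale an absence of overlap comes with very small differences. Only 8 called genes had a group mean under that median (LnA alone 5, L-E alone 1, both 2).

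**Figure D1:**
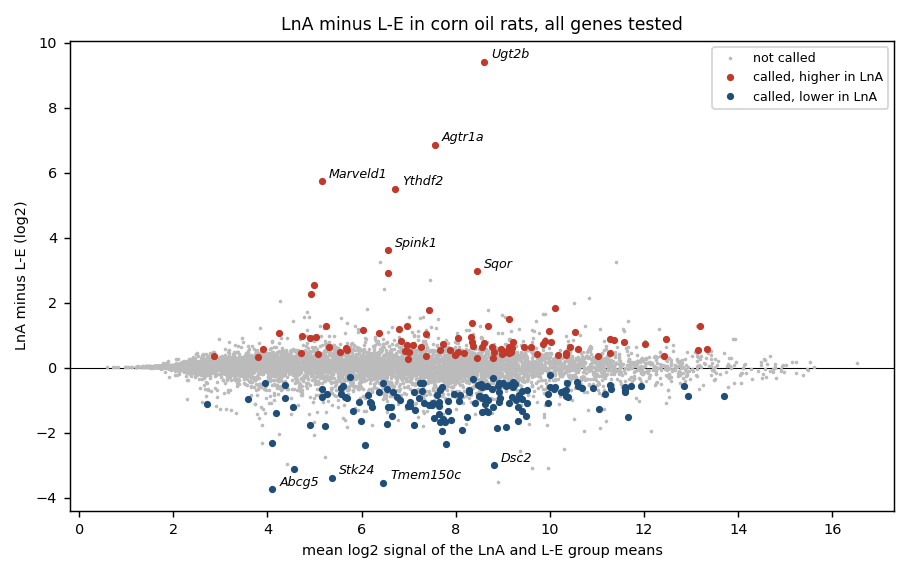
LnA minus L-E difference in corn oil rats (log2, y axis) against the mean log2 signal of both groups (x axis) for 10411 genes, with the called genes coloured. Most large positive differences belong to a few genes led by Ugt2b at 9.40. Only 2 called genes of either direction had both group means under the lowest array median (3.55), so the 153 genes lower in LnA lie almost all above it.

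The genes with the largest excess in LnA were led by Ugt2b, a UDP-glucuronosyltransferase that joins glucuronic acid to steroids and drugs. Its signal was 13.47, 13.72, 13.29 and 12.70 in the 4 LnA rats, against 3.85, 3.90, 3.92 and 3.89 in the 4 L-E rats. The L-E values lie close to the median of an array, where the scale is set by background, and the difference of 9.40 (SE 0.20, adjusted p = 2.32e-06) is the largest of all genes. A further probe set of Ugt2b had means of 9.13 in LnA and 3.38 in L-E. Other members of the UGT2B family, whose sequences are alike, had differences of 0.14 to 0.55 and none was called (Ugt2b1 0.55, Ugt2b15 0.36, Ugt2b35 0.28, Ugt2b7 0.14), and cross-hybridisation between them was not tested.

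Agtr1a, the type 1 receptor of angiotensin II, had signals of 11.19, 10.74, 11.02 and 10.98 in LnA rats, against 4.79, 3.90, 4.12 and 3.67 in L-E rats. The gap between the lowest LnA and the highest L-E rat was many times the spread within either group (difference 6.86, SE 0.24, adjusted p = 2.65e-05), and another probe set of Agtr1a differed by 5.92. Sqor, the mitochondrial enzyme that oxidises hydrogen sulfide, had 10.20, 9.79, 9.89 and 9.87 in LnA, against 7.05, 7.04, 6.71 and 7.07 in L-E (difference 2.97, SE 0.11, adjusted p = 4.66e-05). Marveld1, a membrane protein of the MARVEL family, had 6.43, 8.28, 8.62 and 8.73 in LnA, against 2.26 to 2.29 in the 4 L-E rats, all of them at background. LnA replicate 1 stood below the other 3 LnA rats, and the difference of 5.74 (SE 0.49, adjusted p = 0.0014) has the widest error of this group. A second Marveld1 probe set was low in both groups (2.76 in LnA and 1.51 in L-E).

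Ythdf2, which binds methylated adenosines in mRNA and promotes decay, had 9.47, 9.18, 9.77 and 9.44 in LnA rats, against 3.16, 3.83, 4.64 and 4.19 in L-E rats (difference 5.51, SE 0.30, adjusted p = 0.000275 from limma). A second probe set of Ythdf2 stood at 3.96 in LnA and 3.79 in L-E, so the difference was seen with 1 of its 2 probe sets. Probe sets of a gene disagree for Ythdf2 and Marveld1, and for Spink1, Col14a1, Rtn4ip1, Sc5d, Sparc, Exoc3 and RT1 genes below, among others. There a difference in mRNA and a difference in how the strains' sequences hybridise cannot be told apart. Sequence differences under the probes were not tested for any gene. Spink1, a secreted trypsin inhibitor, had 8.61, 8.06, 8.17 and 8.60 in LnA rats, against 5.70, 4.37, 4.43 and 4.47 in L-E rats (difference 3.62, SE 0.32, adjusted p = 0.00142). Of its other probe sets, 1 differed by 4.25 and 1 by 0.15 (adjusted p = 0.695 over all probe sets). Afp, the plasma protein of the fetal liver, averaged 8.03 ± 0.32 in LnA and 5.11 ± 0.69 in L-E (SD, n = 4 each), and Col14a1, a collagen of fibril surfaces, 6.27 ± 0.42 in LnA and 3.71 ± 0.22 in L-E. A second Col14a1 probe set was at background in both groups (2.80 in LnA and 2.72 in L-E).

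Bckdhb, the β subunit of branched-chain ketoacid dehydrogenase, was higher by 1.83 in LnA (11.03 ± 0.15 in LnA and 9.20 ± 0.16 in L-E, adjusted p = 0.00028 from limma). Sirt5, a mitochondrial deacylase, was higher by 1.76 (adjusted p = 0.00279) and Rtn4ip1, a mitochondrial oxidoreductase, by 2.27 (adjusted p = 0.00924). A second Rtn4ip1 probe set was at background in both groups (2.52 in LnA and 2.46 in L-E). The remaining 4 of the 15 largest were Kpna1, a nuclear import receptor (1.49), Cbx1, a heterochromatin protein (1.37), Cks2, a subunit of cyclin-dependent kinases (1.30), and Nqo2, a quinone reductase (1.29).

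The calls of Ugt2b, Agtr1a, Sqor, Marveld1, Ythdf2, Spink1, Col14a1, Bckdhb and Cks2 remained without any 1 array (adjusted p up to 0.00987). Those of the other 6 ended without at least 3 of the arrays: Nqo2 without LnA replicate 3 or 4 or L-E replicate 2 (up to 0.0171), Sirt5 without LnA replicate 3 or 4 or L-E replicate 1 or 2 (up to 0.0124), Kpna1 without any but LnA replicate 1 or 3 or L-E replicate 4 (up to 0.0171), Afp without any but LnA replicate 1 or L-E replicate 4 (up to 0.0205), Cbx1 without any but LnA replicate 1 (up to 0.0259) and Rtn4ip1 without any but L-E replicate 4 (up to 0.0371). Centring on the array median also ended the calls of Cbx1 (0.0105) and Rtn4ip1 (0.0109), quantile normalization that of Rtn4ip1 (0.0125) and 1 fit over the 4 corn oil groups that of Cbx1 (0.0101).

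**Figure D2:**
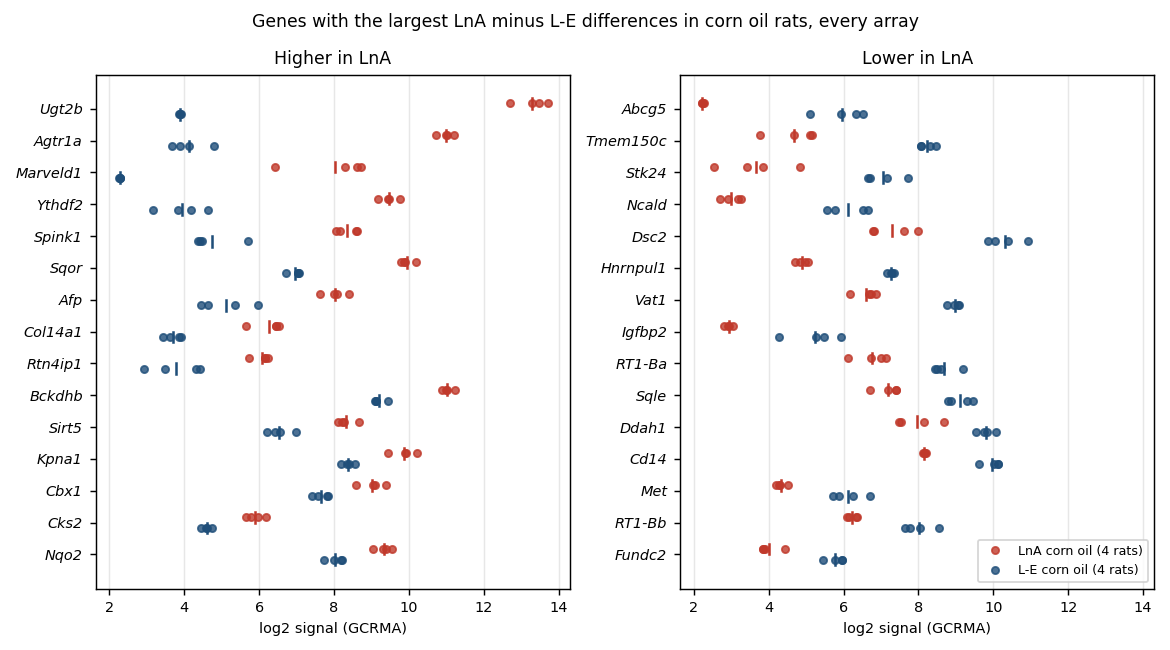
Log2 signal (x axis) of the 15 genes with the largest positive and the 15 with the largest negative LnA minus L-E difference among called genes, with LnA rats as the upper row of points and L-E rats as the lower row of each gene. Bars are group means of 4 rats. The groups do not overlap for any of these 30 genes, as the rule that chose them required.

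The largest deficits in LnA began with Abcg5, which with Abcg8 forms the pump that exports sterols into bile and gut. Its signal was 2.24, 2.21, 2.21 and 2.26 in LnA rats, against 5.10, 5.94, 6.32 and 6.52 in L-E rats. The LnA values sit at background with almost no spread, and the difference of -3.74 (SE 0.29, adjusted p = 0.000957 from limma) was read against it. Tmem150c, a transmembrane protein, had 5.15, 5.11, 4.69 and 3.77 in LnA rats, against 8.06, 8.06, 8.32 and 8.46 in L-E rats (difference -3.54, SE 0.30, adjusted p = 0.00141). Dsc2, a cadherin of desmosomes, had 7.99, 7.62, 6.79 and 6.82 in LnA, against 10.06, 10.91, 10.40 and 9.86 in L-E (difference -3.003, SE 0.34, adjusted p = 0.00388).

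Hnrnpul1, an RNA-binding protein, had the smallest adjusted p of the genes lower in LnA. It stood at 4.84, 5.04, 4.97 and 4.71 in LnA rats, against 7.29, 7.16, 7.26 and 7.36 in L-E rats (difference -2.38, SE 0.08, adjusted p = 2.65e-05 from limma). Ncald, a neuronal calcium sensor, averaged 3.01 ± 0.25 in LnA, at background, and 6.12 ± 0.54 in L-E, and Vat1, a membrane protein of vesicles, 6.61 ± 0.30 in LnA and 8.97 ± 0.15 in L-E (SD, n = 4 each). Stk24, a kinase of the sterile-20 family, was the most variable of these genes, with 4.85, 3.43, 2.53 and 3.85 in LnA, against 7.15, 7.71, 6.71 and 6.66 in L-E. Igfbp2, which binds insulin-like growth factors, stood at background in LnA (2.93 ± 0.10) and at 5.24 ± 0.70 in L-E. The other 7 of the 15 were Sqle, RT1-Ba, RT1-Bb and Cd14, taken up with their gene groups below, Ddah1, which degrades dimethylarginines (-1.85), Met, the receptor of hepatocyte growth factor (-1.81), and Fundc2, a mitochondrial outer membrane protein (-1.77).

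Abcg5, Tmem150c, Hnrnpul1, Ncald and Vat1 remained called without any 1 array (adjusted p up to 0.0077). Fundc2 lost its call without LnA replicate 3 or 4 (up to 0.013), Met without any but LnA replicate 1 or L-E replicate 1, 3 or 4 (up to 0.0193), Dsc2 without any but LnA replicate 1 or L-E replicate 2 or 4 (up to 0.0171), Ddah1 and Stk24 without any but LnA replicate 1 (up to 0.0326), and Igfbp2 without any but L-E replicate 3 (up to 0.0319). Quantile normalization ended the calls of Stk24 (0.0107), Igfbp2 (0.0102) and Ddah1 (0.0145).

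Cholesterol genes lay on the low side in LnA. Of 25 measured genes of synthesis, uptake and export, 0 were called higher and 3 lower (Abcg5, Sqle and Sc5d). Of all genes 0.874% were called higher and 1.47% lower. The median difference of the 25 was -0.61, against 0.06 for all genes. Sqle, the squalene epoxidase that commits squalene to sterols, had 7.41, 6.70, 7.40 and 7.20 in LnA, against 9.45, 8.80, 9.31 and 8.86 in L-E (difference -1.93, SE 0.21, adjusted p = 0.00323 from limma). Sc5d, which acts near the end of the pathway, differed by -0.61 (adjusted p = 0.00383), but its second probe set had means of 9.74 in LnA and 9.15 in L-E, a difference of the opposite sign (0.59, adjusted p = 0.013 over all probe sets), and the mean of both probe sets differed by -0.01. Negative values that did not pass the threshold were those of Idi1, an isomerase of the isoprenoid steps (-1.72, adjusted p = 0.0131), Fdft1, squalene synthase (-0.85, adjusted p = 0.0101), Srebf2, the transcription factor that governs the pathway (-1.39, adjusted p = 0.0245), and Abcg8 (-1.18, adjusted p = 0.0334, both groups near background). With an adjusted p under 0.05, 10 of the 25 were lower in LnA and 0 higher, against 500 lower and 558 higher of all 10411 genes. Sqle lost its call without LnA replicate 3 or 4 or L-E replicate 3 (adjusted p up to 0.0171) and Sc5d without LnA replicate 2, 3 or 4 or L-E replicate 1 or 3 (up to 0.0177).

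Fatty acid oxidation genes had a median difference of -0.30 over 51 measured members, of which 0 were called higher and 4 lower. Among all genes the shares were 0.874% higher and 1.47% lower. Acox3, a peroxisomal oxidase of branched fatty acids, had 8.01, 7.99, 8.08 and 8.18 in LnA rats, against 8.99, 8.98, 8.75 and 9.06 in L-E rats (difference -0.88, SE 0.07, adjusted p = 0.0014 from limma). Slc27a5, which activates bile acids and long-chain fatty acids, differed by -0.87 (adjusted p = 0.00272), Acadl, the long-chain dehydrogenase of mitochondria, by -0.74 (adjusted p = 0.00858) and Acox2, the oxidase of bile acid side chains, by -0.67 (adjusted p = 0.00874). Larger values were measured for Crot, a carnitine transferase of peroxisomes (-3.52, adjusted p = 0.0463), and Cpt1a, the gate of mitochondrial fatty acid entry (-1.75, adjusted p = 0.0858), whose rats varied too much to pass. The 38 genes of fatty acid and triglyceride synthesis had a median of -0.01 and 1 call, Mlxipl, the glucose-sensing regulator of lipogenesis (-1.10, adjusted p = 0.00597). Without 1 array the call of Acox3 remained, that of Slc27a5 ended without LnA replicate 3 or 4 or L-E replicate 1 or 2 (up to 0.014), those of Acadl and Mlxipl without any but LnA replicate 1 (up to 0.0346) and that of Acox2 without any array (0.0121 to 0.0297). Quantile normalization ended the calls of Acadl (0.0113) and Acox2 (0.0157), and median centring (0.0115) and the fit over 4 corn oil groups (0.114) also ended that of Acox2.

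Of 25 measured genes of antigen presentation, 0 were called higher and 4 lower in LnA, 3 of class II and 1 of class Ib. The shares over all genes were 0.874% higher and 1.47% lower. RT1-Ba and RT1-Bb encode the α and β chains of the rat class II molecule RT1-B, which antigen-presenting cells use to show peptides to T cells, and RT1-Db1 a β chain of RT1-D. RT1-Ba had 6.99, 6.74, 7.13 and 6.13 in LnA rats, against 8.44, 9.18, 8.61 and 8.49 in L-E rats (difference -1.93, SE 0.25, adjusted p = 0.00614 from limma). RT1-Bb had 6.37, 6.13, 6.34 and 6.08 in LnA, against 7.79, 8.54, 8.03 and 7.65 in L-E (difference -1.77, adjusted p = 0.0031), RT1-Db1 differed by -0.91 (adjusted p = 0.00859) and RT1-N2, a class Ib gene, by -1.06 (adjusted p = 0.00407). RT1-Da, the α chain of RT1-D, and Cd74, the invariant chain that escorts class II molecules, had values of -1.08 (adjusted p = 0.0248) and -0.88 (adjusted p = 0.0138). B2m, the light chain of class I, had a value of 0.07 (13.85 ± 0.05 in LnA and 13.79 ± 0.06 in L-E), and the median of the 25 was 0.04 (-0.02 with centring). These genes are highly polymorphic between rat strains, and further probe sets read -1.09 for RT1-Ba, 0.13 for RT1-Bb (both groups at background) and 0.18 for RT1-Db1. The call of RT1-Ba ended without any 1 array (0.0117 to 0.0202), that of RT1-Bb without LnA replicate 2, 3 or 4 or L-E replicate 3 (up to 0.0168), that of RT1-N2 without LnA replicate 3 or 4 or L-E replicate 2 or 3 (up to 0.0181) and that of RT1-Db1 without any but L-E replicate 2 or 3 (up to 0.0338). The fit over 4 corn oil groups ended the call of RT1-N2 (0.238), and averaging its probe sets (0.0275) or median centring (0.01) that of RT1-Db1.

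Class II promoters carry a CCAAT-type element called the Y box, and it is shown here for the 3 called class II genes and for RT1-Da, which was not called. The last 100 bases before the start of 4 class II genes (RefSeq, GRCr8) were searched for CTGATTGG on either strand, which stands in capitals.
RT1-Ba, chr20:4576957-4577056, plus strand: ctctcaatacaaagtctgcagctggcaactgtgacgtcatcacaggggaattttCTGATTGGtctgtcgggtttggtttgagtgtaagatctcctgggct
RT1-Bb, chr20:4604119-4604218, minus strand: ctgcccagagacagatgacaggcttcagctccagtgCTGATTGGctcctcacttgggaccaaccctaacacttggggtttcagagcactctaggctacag
RT1-Db1, chr20:4560163-4560262, minus strand: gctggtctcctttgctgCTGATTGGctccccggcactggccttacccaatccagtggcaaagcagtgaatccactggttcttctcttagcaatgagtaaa
RT1-Da, chr20:4515315-4515414, plus strand: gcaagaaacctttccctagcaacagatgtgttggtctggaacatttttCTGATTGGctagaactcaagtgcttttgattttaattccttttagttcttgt
The element began 46, 64, 83 and 52 bases before the start in the order printed. It was present in 3.26% of the 27457 promoters searched over 250 bases and in 4.59% of those of measured genes, and in 16 (7.66%) of those of called genes, the 3 above included.

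Markers of macrophages, which carry class II molecules, were examined beside these genes. In whole liver, fewer cells of a type and less RNA per cell cannot be told apart. Of 29 measured markers of macrophages and other immune cells, 1 was called (Cd14). With an adjusted p under 0.05, 6 of the 29 had a lower value in LnA, against 1 with a higher value. The median difference of all 29 was 0.07 (0.01 with centring). With the lowest 40% of genes left out, the median of the 17 remaining markers was -0.40, against 0.06 for all remaining genes. The summed linear signal of the list was 3397 to 3763 in LnA rats, against 5108 to 7382 in L-E rats, and 12 of the 29 were at background in both groups. Cd14, a receptor of bacterial lipopolysaccharide, had 8.18, 8.11, 8.16 and 8.19 in LnA, against 9.62, 10.12, 10.02 and 10.13 in L-E (difference -1.81, SE 0.11, adjusted p = 0.000392 from limma), and this call remained without any 1 array (up to 0.00363). Lyz2, the lysozyme of macrophages, had a value of -1.74 (adjusted p = 0.0121), Csf1r, the receptor of their growth factor, -0.85 (0.0207) and Clec4f, a lectin of Kupffer cells, -0.67 (adjusted p = 0.0212). C1qb and the common leukocyte antigen Ptprc had values of -0.33 and 0.03 (adjusted p = 0.179 and 0.5). The part of the number of these cells in the class II and Cd14 values was not tested. Markers of stellate and endothelial cells had a median of 0.07 with 0 of 21 called, against 2.34% of all genes called.

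Of 43 nuclear receptors and liver transcription factors, 0 were called higher and 4 lower in LnA, against 0.874% and 1.47% of all genes. Their median difference was 0.02 (-0.04 with centring). Rxra, the partner of many nuclear receptors, had 7.01, 6.77, 6.79 and 6.78 in LnA, against 8.63, 8.57, 8.13 and 8.66 in L-E (difference -1.66, SE 0.13, adjusted p = 0.000957 from limma). Cebpa, a factor that drives metabolic genes of the hepatocyte, had 7.97, 8.09, 8.10 and 7.78 in LnA, against 9.49, 9.21, 9.22 and 9.32 in L-E (difference -1.33, SE 0.09, adjusted p = 0.00071). Gata4 and Gata6, zinc finger factors found in endothelial as well as epithelial cells, differed by -0.97 and -0.82 (adjusted p = 0.00789 and 0.00545), with Gata4 at background in LnA (3.09 ± 0.07). Hnf4a, a central factor of hepatocyte identity, had a value of -0.81 (adjusted p = 0.0338). The calls of Rxra and Cebpa remained without any 1 array (adjusted p up to 0.00618), and those of Gata4 and Gata6 ended without any but L-E replicate 4 (up to 0.0333). In 1 fit over the 4 corn oil groups the calls of Rxra (0.0771) and Gata6 (0.0115) ended, quantile normalization ended that of Gata4 (0.0101), and averaging its probe sets that of Gata6 (0.011).

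**Figure D3:**
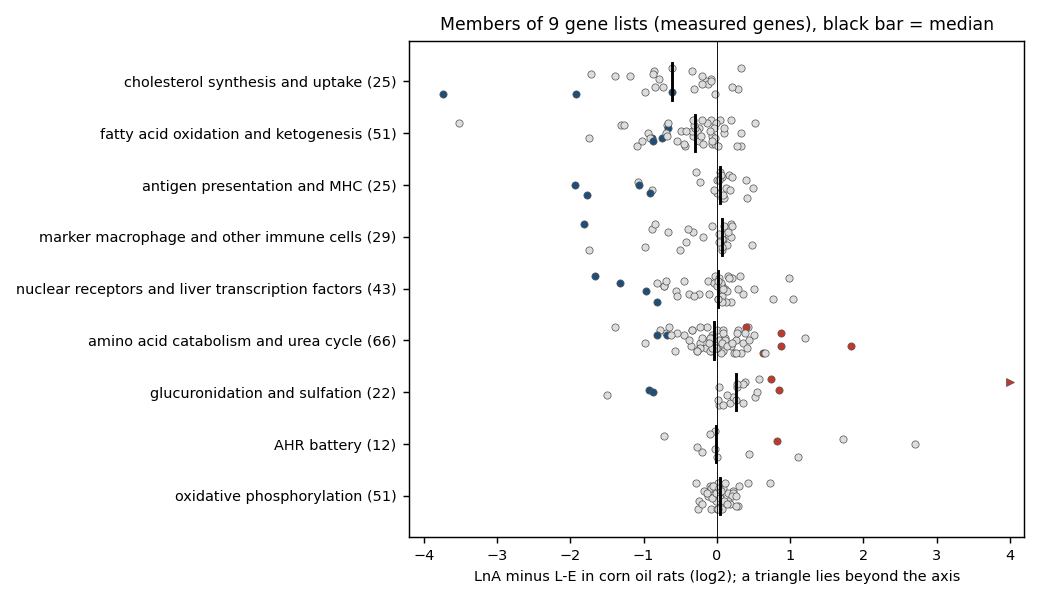
LnA minus L-E difference (log2, x axis) of every measured member of 9 gene lists, with the number of members beside each name. Filled red points were called higher and filled blue points lower in LnA, grey points were not called, and the black bar is the list's median, which is -0.61 for cholesterol genes and 0.04 for oxidative phosphorylation genes (-0.02 with centring).

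Amino acid catabolism showed calls in both directions, 5 higher and 2 lower among 66 measured genes (median -0.03), against 0.874% and 1.47% of all genes. Besides Bckdhb, the genes higher in LnA included Haao, which works in the breakdown of tryptophan (11.71 ± 0.17 in LnA and 10.83 ± 0.05 in L-E, adjusted p = 0.00172 from limma), and Gnmt, the glycine methyltransferase that disposes of methyl groups (12.91 ± 0.22 in LnA and 12.04 ± 0.13 in L-E, adjusted p = 0.00623). Prodh2, which opens the breakdown of hydroxyproline, differed by -0.81 (adjusted p = 0.0016), and Bckdha, the α subunit of the same dehydrogenase as Bckdhb, by -0.68 (7.37, 7.47, 7.15 and 7.34 in LnA rats, against 7.89, 8.13, 7.92 and 8.10 in L-E rats, adjusted p = 0.00523). The subunits of 1 enzyme differed in opposite directions. Without 1 array the calls of Haao, Prodh2 and Bckdhb remained, that of Gnmt ended without any but LnA replicate 1 or 2 (adjusted p up to 0.0252), as it did with median centring (0.0155), and that of Bckdha without any but LnA replicate 2 (up to 0.0226).

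Conjugating enzymes other than Ugt2b moved less. Of 22 genes of glucuronidation and sulfation, 3 were called higher and 2 lower, against 0.874% and 1.47% of all genes. Their median difference was 0.27 (0.21 after centring). Ugp2, which makes UDP-glucose, was higher by 0.85 in LnA (adjusted p = 0.00596). Among sulfotransferases, Sult1b1 differed by 0.73 (adjusted p = 0.000784) and Sult1c2a by -0.92 (adjusted p = 0.000784 from limma). Sult1e1, which sulfates estrogens, differed by -0.88 (adjusted p = 0.00216). Obp3, a male-enriched carrier protein of the α2u-globulin family, had 13.57, 14.05, 13.96 and 13.74 in LnA rats, against 12.20, 12.38, 12.78 and 12.82 in L-E rats (difference 1.28, adjusted p = 0.00614), and Cyp2a1, a steroid hydroxylase, averaged 8.06 ± 0.23 in LnA and 9.19 ± 0.21 in L-E (adjusted p = 0.00545). Hmox1, the heme oxygenase, had 5.22, 4.64, 5.56 and 5.24 in LnA, against 6.65, 7.15, 6.79 and 6.66 in L-E (difference -1.65, SE 0.20, adjusted p = 0.005). Without 1 array the call of Sult1c2a remained, and that of Sult1e1 ended without LnA replicate 3 (0.0115). Those of Ugp2, Obp3, Cyp2a1 and Hmox1 each ended without any of 6 arrays, LnA replicate 4 and L-E replicates 1 and 3 among them (adjusted p up to 0.0259), and centring ended those of Ugp2 (0.0111) and Obp3 (0.0111).

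Of 56 solute carriers, 2 were called higher and 2 lower, and of 33 extracellular matrix genes 1 higher and 2 lower. The shares of all genes were 0.874% higher and 1.47% lower. Slco2b1, an organic anion uptake carrier, had 7.47, 7.93, 7.96 and 8.10 in LnA rats, against 9.19, 9.18, 9.26 and 9.29 in L-E rats (difference -1.36, adjusted p = 0.00175 from limma). Slc20a1, a phosphate importer, was higher by 1.20 (adjusted p = 0.00597) and Slc13a3, a dicarboxylate importer, had a difference of -1.63 (adjusted p = 0.00816). Igfbp4, another binding protein of insulin-like growth factors, differed by -1.49 (adjusted p = 0.00545). Serpina4, the inhibitor of tissue kallikrein, was higher by a small but tight margin (13.42 ± 0.09 in LnA and 12.87 ± 0.07 in L-E, adjusted p = 0.00206). Sparc, a matrix glycoprotein, differed by -0.81 (adjusted p = 0.00744) with the probe set of the higher mean, and by 1.08 (adjusted p = 0.00517 over all probe sets) with the other, so its direction depended on the probe set. No member was called among the CYP3A and CYP4 families (14 genes), glutathione S-transferases (20), interferon-stimulated genes (28), acute phase proteins (28), complement and coagulation (35), apolipoproteins (19), the circadian clock (19), the cell cycle (36), oxidative phosphorylation (51) or ribosomal proteins (34) by limma. Over all genes 2.34% were called, so a list of such a size can hold no call. Of the 36 cell cycle genes, 21 were at background in both groups. Slco2b1 and Serpina4 remained called without any 1 array, Slc20a1 and Igfbp4 lost the call without any but LnA replicate 1 or 2 (up to 0.0268), Sparc without any but L-E replicate 2 (up to 0.0282) and Slc13a3 without any array (0.0105 to 0.0326). Quantile normalization ended the call of Slc13a3 (0.0109), the fit over 4 corn oil groups those of Slc20a1 (0.052), Igfbp4 (0.0107) and Sparc (0.0273), and quantile normalization ended that of Sparc as well (0.014).

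The AHR, its partners (11 genes with Ahr) and its targets held 1 call in these undosed rats. Over all genes 2.34% were called, so lists of 11 and 12 genes can hold 1 call or none at that share. Ahr itself had 2.16, 3.03, 2.37 and 2.32 in LnA rats, against 2.99, 4.19, 3.91 and 3.92 in L-E rats, and the groups overlap by 1 rat of each. Its difference of -1.28 (SE 0.30, adjusted p = 0.0392 from limma) did not pass the threshold, and the LnA mean lies at background. The means of LnC, with wild-type AHR, and H/W, with the variant, were also at background, at 2.15 and 3.03. LnC minus H/W was -0.88 (adjusted p = 0.00104 from limma), so the lower Ahr signal did not go with the variant form in that pair. In 1 fit over the 4 corn oil groups the LnA minus L-E difference of Ahr passed (adjusted p = 0.00314). Arnt, its partner, had a value of -0.68 (adjusted p = 0.0401, and 0.00673 in the fit over 4 groups). Among 12 measured genes of the AHR battery, 1 was called, Exoc3, a subunit of the exocyst (0.82, adjusted p = 0.00744), whose further probe sets read -0.08 and 0.19 and whose call ended without any but LnA replicate 1 or L-E replicate 4 (up to 0.0264). The call of Exoc3 also ended in the fit over 4 groups (0.0237), with median centring (0.0115), with quantile normalization (0.0102) and with its probe sets averaged (0.0214).

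Cyp1a1, the most inducible of the xenobiotic-metabolising P450 enzymes, varied more between rats than between groups, with 2.38, 5.20, 7.39 and 7.81 in LnA, against 2.13, 2.14, 6.16 and 5.49 in L-E (adjusted p = 0.371). The values of 2.38, 2.13 and 2.14 lie at background. By RT-PCR the paper reports Cyp1a1 mRNA of control rats as under the detection limit. Cyp1a2, its constitutive liver relative, was at 14.09 ± 0.22 in LnA and 14.11 ± 0.07 in L-E (SD, n = 4 each). Cyp1b1 and Aldh3a1, which are silent in liver without dioxin, were at background in both groups, with differences of -0.03 and 0.00. Tiparp, an ADP-ribosyltransferase that restrains the AHR, had a value of 1.11 (adjusted p = 0.0878) and Nqo1, a quinone reductase, one of -0.72 (adjusted p = 0.218 from limma). Lox, the enzyme that cross-links collagen, had the largest value of the battery (8.81 ± 0.46 in LnA and 6.10 ± 1.098 in L-E, difference 2.71, adjusted p = 0.0251).

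LnA carries the H/W form of Ahr, so the genes around it were examined. None of the 10 measured genes on either side of Ahr (order of GRCr8) was called, against 2.34% of all genes. At that share so few genes can hold no call, so the count tells little about this region. The nearest, Twist1 and Bzw2, were at background in both groups (2.41 in LnA and 2.33 in L-E for Twist1, 2.14 in LnA and 2.09 in L-E for Bzw2). The only value above 1 was that of Nampt, which makes a precursor of NAD, at -1.79 (adjusted p = 0.0661 from limma). The core of the AHR response element, GCGTG, was present on either strand in the 250 bases before the start of 42.6% of 209 called genes with a promoter sequence, against 42.4% of 8610 measured genes, and the shares were 41.8% for the genes higher in LnA and 43.1% for those lower.

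Called genes often lay next to each other. Of 242 called genes with a place in GRCr8, 33 (13.6%) adjoined another called gene in the order of measured genes, against 4.62% of all genes that adjoin a called gene. They formed 17 adjacent pairs, 14 of which went in the same direction. The class II genes RT1-Db1, RT1-Ba and RT1-Bb made up 2 of the pairs. Sec31a, a coat protein of transport vesicles, was lower beside Tmem150c (-1.33 and -3.54), Pa2g4, a growth regulator, beside the receptor kinase Erbb3 (-1.47 and -1.20), Ptms beside Mlf2 (-1.28 and -1.08), Alcam, an adhesion molecule, beside the ubiquitin ligase Cblb (-1.22 and -1.10, with both groups of Cblb at background), and Kat2b, a histone acetyltransferase, beside Sult1c2a (-0.45 and -0.92). Fez2 and Fam98a were the only pair in which both were higher (0.44 and 0.73). The pairs of opposite direction were Bckdha with Exosc5, Trio with Dap, and Washc4 with Slc41a2 (-0.68 and 0.69, 1.15 and -0.86, -0.22 and 0.47). Of these genes Pa2g4, Erbb3, Ptms, Dap, Slc41a2, Tmem150c and Sult1c2a remained called without any 1 array. The others lost their call in at least 2 of the 8 fits that left out an array, LnA replicate 3 or 4 among them for each (adjusted p up to 0.0343). The calls of Sec31a, Cblb, Fez2, Fam98a, Exosc5, Trio and Washc4 also ended in 1 fit over the 4 corn oil groups (adjusted p 0.0111 to 0.109).

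A second set of rats, dosed with TCDD, allowed the difference between LnA and L-E to be measured on other arrays. These arrays share the scan days of the corn oil groups, so they do not separate scan day from line. In TCDD rats 266 genes (2.55%) were called by limma, 111 higher and 155 lower in LnA. Of the 244 genes of corn oil rats, 240 (98.4%) had the same sign in TCDD rats, against 83.3% of all genes, and 95 were called in the same direction (29 higher, 66 lower) with 0 called in the opposite one. The 95 genes are 38.9% of the corn oil calls and 35.7% of the TCDD calls. The 8 LnA arrays did not overlap the 12 L-E arrays of any treatment for 69 of the 244 (28.3%) and for 2.22% of all genes. These arrays include the 8 on which the 244 were called, so this count is a description and not a further test.

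Ugt2b ranged from 12.65 to 13.72 over the 8 LnA arrays, against 3.85 to 3.94 over the 12 L-E arrays, and Agtr1a from 10.40 to 11.19, against 3.67 to 4.79. The differences in TCDD rats were 9.01 for Ugt2b, 6.55 for Agtr1a, 2.87 for Sqor, 5.06 for Ythdf2 and 3.78 for Spink1, and -4.38 for Abcg5, -2.70 for Dsc2, -2.45 for Hnrnpul1 and -1.43 for Rxra, all called by limma. Hmox1 differed by -2.90 (adjusted p = 0.00133), with 3.99 to 5.56 over the 8 LnA arrays, against 6.48 to 8.30 over the 12 L-E arrays. Sqle (-1.92, adjusted p = 0.0309) and Cd14 (-1.19, adjusted p = 0.0359) kept their sign without passing. A test of whether TCDD altered the difference called 1 of the 244 genes (4 of all genes). It was Arhgef11, which is named for this result after its values were seen, with -0.47 in corn oil rats and 0.01 in TCDD rats (interaction 0.48, adjusted p = 0.00849 from limma).

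**Figure D4:**
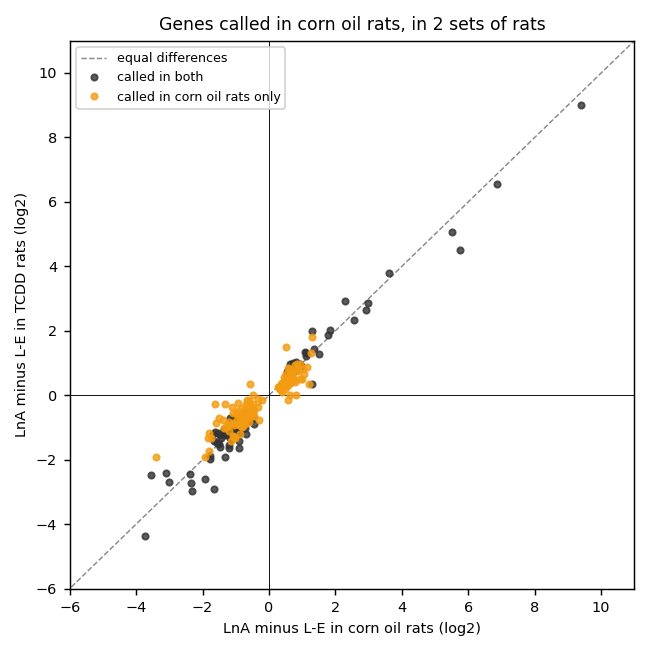
LnA minus L-E difference (log2) of the 244 called genes in corn oil rats (x axis) and in TCDD rats (y axis), which share no array. Of the 244, 240 lie in the quadrants of equal sign, and the 95 called in both sets of rats are drawn in dark grey.

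The corn oil rats of LnC and H/W place each gene among 4 groups. LnA shares its AHR form with H/W, which is also a parent strain of LnA. A likeness of H/W to LnA therefore does not tell the AHR form from other H/W alleles. LnA shares its breeding with LnC, and LnA and LnC arrays also share the scan day and lot. Of the 244 genes, the LnC mean lay nearer to LnA than to L-E for 198 and the H/W mean for 98. Both means lay nearer to LnA for 81 genes, LnC alone for 117, H/W alone for 17 and neither for 29. These counts were not made over all genes, so they cannot be set against a general share. The LnC minus H/W difference, which shares no array with LnA minus L-E, had the same sign for 188 of the 244 (77.0%), against 62.4% of all genes, and it sets lines as well as scan days apart, which cannot be separated. It called 26 genes (0.25%), of which 5 are among the 244 (2.05% of these and 19.2% of the 26).

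Ugt2b and Mlf2 went in the same direction in both differences. Ugt2b stood at 13.29 ± 0.43 in LnA and 3.89 ± 0.03 in L-E, and at 13.30 ± 0.18 in LnC and 4.10 ± 0.17 in H/W (SD, n = 4 each). Its signal was thus low in both parent strains and high in LnA and LnC, whose arrays share scan day and lot. The reason was not tested. Agtr1a, Sqor and Marveld1 went in opposite directions, as H/W stood with LnA. Agtr1a was at 10.98 ± 0.19 in LnA and 4.12 ± 0.48 in L-E, and at 4.31 ± 0.16 in LnC and 11.37 ± 0.21 in H/W. The LnC minus H/W differences were -7.06 for Agtr1a, -3.15 for Sqor and -4.04 for Marveld1 (adjusted p = 1.15e-07, 3.1e-06 and 0.00213 from limma).

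Other genes set LnA or L-E apart from the remaining 3 groups. Dsc2 was at 7.31 ± 0.60 in LnA and 10.31 ± 0.46 in L-E, with 9.93 ± 0.24 in LnC and 9.43 ± 0.40 in H/W, so LnA stood alone. Abcg5 was at background in LnA (2.23 ± 0.03), against 5.97 ± 0.63 in L-E, 6.73 ± 0.68 in LnC and 4.80 ± 1.96 in H/W, where rats varied widely. Cd14 in LnA (8.16 ± 0.04) lay below L-E (9.97 ± 0.24), LnC (10.36 ± 0.04) and H/W (9.23 ± 0.64). L-E stood alone for Fundc2 (4.01 ± 0.29 in LnA, 5.78 ± 0.24 in L-E, 3.83 ± 0.02 in LnC and 3.93 ± 0.07 in H/W) and Hmox1 (5.17 ± 0.38 in LnA, 6.81 ± 0.23 in L-E, 5.05 ± 0.44 in LnC and 4.82 ± 0.46 in H/W). Spink1 and Ythdf2 were intermediate in LnC and H/W (6.63 ± 0.24 and 6.37 ± 0.84 for Spink1, 7.32 ± 1.86 and 7.59 ± 0.56 for Ythdf2), and LnC and H/W did not differ beyond their spread for either. These placements are descriptions of group means, with no test.

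**Figure D5:**
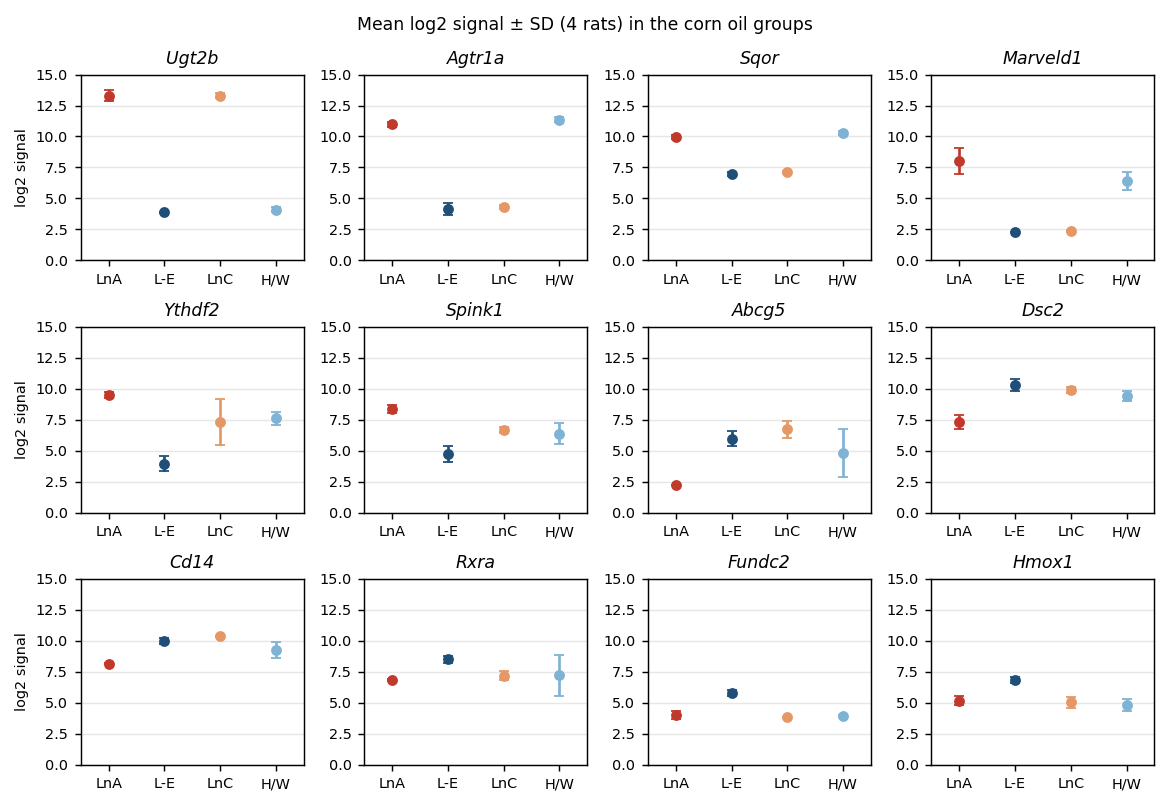
Mean log2 signal ± SD (y axis) of 12 genes in the corn oil groups LnA, L-E, LnC and H/W (x axis, 4 rats each). Ugt2b is high in LnA and LnC, Agtr1a, Sqor and Marveld1 in LnA and H/W, while Fundc2 and Hmox1 are high in L-E alone.

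For 64 called genes a further 78 probe sets were measured. Of these 48 had the sign of the first, and 38 of the 54 that were above background in at least 1 group. By limma over all probe sets, 10 were called in the same direction and 2 in the opposite one (Sparc, and Pcbp2 with 0.39 against -0.73). Genes called with a further probe set in the same direction include Agtr1a, Ugt2b, Spink1 and Obp3 (1.86 with the second probe set), and Col18a1, a collagen of vessel walls (-0.64 and -1.31).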

How the data were processed

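Per the labels and the study's methods, liver RNA of single rats was hybridised to Affymetrix RAE230A arrays. The authors deposited log2 signals per probe set, for which the notes of the submitters list affy 1.10.0, R 2.3.1 and GCRMA 2.4.1. RMA on a probe map by Entrez gene, given in the published methods, was not rerun. The arrays hold 15923 probe sets. Leaving aside 57 controls, 12783 map to 1 gene symbol, 312 to several and 2771 to none. For each of 10411 genes, the probe set whose mean over these 8 arrays was highest was taken, with no filter. No column was unused (0).

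LnA minus L-E was fitted with limma 3.58.1 in R 4.3.3 (jsonlite 2.0.0) over 8 arrays, with p adjusted by the Benjamini-Hochberg method and a threshold of 0.01. The same fit was made in TCDD rats and for LnC minus H/W, and the interaction over 16 arrays of 4 groups. The scripts were tested on simulated data. Whether replicates came from separate litters is not stated, so p-values measure the spread between these rats. The genes and 38 lists were chosen with earlier results of these data known. Named genes are the 15 largest called differences each way, AHR genes, up to 4 called members of a list and called neighbours. Genes outside the rule are list members, family members or other probe sets named after their values were seen. Alternatives were other scaling, filters, probe set rules, weights, blocks, thresholds and leaving out each array.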

Additional observations from a re-analysis of the deposited data

Results flagged for a closer look

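Of 200 sets of 4 values (100 named genes in LnA and in L-E corn oil rats), 17 had 1 rat far from the other 3, where chance gives about 1 in 20. In LnA, replicate 1 stood apart for Fundc2 (4.45, others 3.84 to 3.90), Slc27a5 (12.76, others 12.40 to 12.42), Ugp2 (11.56, others 11.84 to 11.87) and Rxra (7.01, others 6.77 to 6.79). Replicate 2 stood apart for Cyp1a2 (13.76, others 14.18 to 14.22) and replicate 3 for Fez2 (8.30, others 8.42 to 8.43). Replicate 4 did so for Col14a1 (5.64, others 6.44 to 6.53), Aldh3a1 (3.32, others 2.62 to 2.72), RT1-Db1 (6.16, others 6.34 to 6.36) and Erbb3 (3.77, others 3.98 to 4.01).

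In L-E, replicate 1 stood apart for Spink1 (5.70, others 4.37 to 4.47), Cyp1b1 (3.79, others 3.35 to 3.39) and Tpp1 (9.39, others 9.84 to 9.91), and it is the L-E array with a scan day of its own. Replicate 3 stood apart for Sqor (6.71, others 7.04 to 7.07), Tiparp (6.85, others 5.64 to 5.84) and Rxra (8.13, others 8.57 to 8.66), and replicate 4 for Bckdhb (9.44, others 9.08 to 9.13).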

How the results depend on the processing

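Of the 244 called genes, 189 remained with median centring (214 called), 191 with quantile normalization (216), 233 without the lowest 40% of genes (357) and 219 with probe sets averaged per gene (266). Genes called higher moved to 48 with centring and 141 without low genes. Array weights gave 497 (247 higher, 250 lower), 1 fit over the 4 corn oil groups 407 (173, 234), the threshold of 0.05 1058 (558, 500) and the test without moderation 60 (20, 40). With scan day as a random block the estimated correlation within a day was negative (-0.251) and 3896 genes were called (2935 higher, 961 lower). Each scan day held arrays of only 1 of the groups, where a negative correlation shrinks the standard error of the difference. This count therefore cannot tell scan day from group. Without 1 array 80 to 233 genes were called, 27 to 102 higher and 49 to 131 lower. The count moved by over 1.5 times without LnA replicate 2 (138), 3 (82) or 4 (80) or L-E replicate 1 (119), 2 (123) or 3 (129). In TCDD rats it was 133 to 225, moved that far without any LnA array or without L-E replicate 3 or 4, and for LnC minus H/W 10 to 50, moved without any but H/W replicate 2 or 3.

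The replicate numbers did not pair the arrays (correlations of same-numbered LnA and L-E arrays -0.195 to 0.187, 0 of 4 LnA arrays closest to their own number). With the replicate block 27 genes were called (9 higher, 18 lower; 25 of the 244), 23 in TCDD rats and 6 for LnC minus H/W. Of 90 called genes that the rule names, 30 remained called without any 1 array.

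Values near 0 changed sign. Cyp1a2 was 0.0068 with quantile normalization and ranged from -0.0599 without LnA replicate 4 to 0.0912 without LnA replicate 2. Cyp1b1 was 0.0171 with the scan day block and ranged from -0.069 without L-E replicate 2 to 0.0773 without L-E replicate 1. Aldh3a1 was -0.0815 with quantile normalization, -0.0568 with centring and -0.228 with array weights, and ranged from -0.166 without LnA replicate 4 to 0.104 without L-E replicate 1. Sparc changed to 0.133 with its probe sets averaged. Centring changed the sign of 10 of 38 list medians.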
